A study of Mus musculus with 10 samples.

Results

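The genes described here are 8 TALE homeobox genes that encode DNA-binding partners of Hox proteins: Meis1, Meis2 and Meis3, Pbx2, Pbx3 and Pbx4, and Pknox1 and Pknox2. They were taken by symbol from a table of 22552 genes, and all 8 were found and tested among the 14279 genes with a mean of at least 0.25 RPKM (reads scaled to gene length and library size). All 8 also exceeded that level in wild type alone, so none was admitted through its level after Ezh2 deletion. Other TALE homeobox genes are given below only as a list.

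RNA came from cerebella dissected from mouse embryos at E13.5, mid-gestation, on a C57BL/6;129 background. In the Ezh2 deletion group (4 libraries) Cre driven by Pax7 recombined a floxed Ezh2 allele, and a Rosa-YFP reporter allele was bred in to guide dissection. The comparison group (4 libraries) is labelled wild type, and the sources used here do not say whether it carried the Cre, floxed or reporter alleles. Ezh2 is the enzyme of Polycomb repressive complex 2 that methylates histone H3 to give the silencing mark H3K27me3. Cre from Pax7 acts only in cells that have expressed Pax7, so a dissected cerebellum can hold undeleted cells. The labels do not tie libraries to separate embryos, and a p-value here reflects only how libraries differ, which can be technical.

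TALE proteins carry a homeodomain with an extra loop of 3 residues. Pbx proteins bind DNA together with Hox proteins, and Meis and Pknox proteins bind Pbx, which helps bring Pbx into the nucleus and stabilises complexes with Hox. In the developing hindbrain such complexes act on enhancers of Hox genes themselves. Meis and Pbx factors also work without Hox proteins in regions that express none, which include the midbrain and, normally, the cerebellum.

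Meis2 was the only member whose RNA changed past the threshold between genotypes, and the start regions of the 3 Meis genes are therefore shown side by side. Each line gives the 250 bases before the RefSeq start (GRCm38.p6), 5′ to 3′ on the gene's strand, with CpG dinucleotides, the usual feature of Polycomb-bound start regions, in capitals. Meis1 is chr11:19018970-19019219 (minus strand), Meis2 chr2:116064620-116064869 (minus strand) and Meis3 chr7:16175145-16175394 (plus strand).
Meis1: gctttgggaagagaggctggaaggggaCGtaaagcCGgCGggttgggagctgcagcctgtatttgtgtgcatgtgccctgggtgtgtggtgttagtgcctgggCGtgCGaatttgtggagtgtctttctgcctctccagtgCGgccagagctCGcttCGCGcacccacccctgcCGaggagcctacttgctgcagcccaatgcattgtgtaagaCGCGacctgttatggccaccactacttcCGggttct
Meis2: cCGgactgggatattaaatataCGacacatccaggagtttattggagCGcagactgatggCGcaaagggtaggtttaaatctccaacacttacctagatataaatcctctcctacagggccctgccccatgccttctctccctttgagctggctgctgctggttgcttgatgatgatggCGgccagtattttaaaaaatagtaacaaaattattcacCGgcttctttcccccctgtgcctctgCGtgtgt
Meis3: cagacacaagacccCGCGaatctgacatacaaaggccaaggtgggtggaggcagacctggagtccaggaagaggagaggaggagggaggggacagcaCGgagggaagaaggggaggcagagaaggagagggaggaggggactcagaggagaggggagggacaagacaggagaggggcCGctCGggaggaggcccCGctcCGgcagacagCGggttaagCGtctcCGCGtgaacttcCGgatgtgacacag

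The Meis2 window held 7 CpG, fewer than the 13 of Meis1, the 12 of Meis3, the 12 of Pbx4 and the 27 of Pbx2. Over all 32851 RefSeq windows of this length the median was 6. RefSeq windows were found for these 5 of the 8 genes. None of the 5 held TGACAG, the core recognised by Meis and Pknox proteins, which 15.9% of all windows hold on either strand. Nor did they hold the Pbx-Hox site TGATTNAT, which 2.82% of windows hold. These counts describe the letters of the windows shown and say nothing of the rest of each gene.

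As a check of the labels, the Ezh2 transcript averaged 78.7 ± 4.54 RPKM over wild type and 54.5 ± 6.91 RPKM over Ezh2 deletion libraries (SD, n = 4), and every deletion library lay below every wild type library (log2 difference -0.53, SE 0.0839, limma adjusted p = 0.00737). Relative depth, with wild type 1 as 1, ran from 1 to 1.35 in wild type and from 1.25 to 2.11 in Ezh2 deletion. The genotypes differ in sex markers: Xist reached no more than 0.0712 RPKM in wild type, while Ezh2 deletion 1 to 4 held 54.1, 62.8, 94.5 and 0.094 RPKM. The Y-linked Ddx3y was at least 8.31 RPKM in wild type, Ezh2 deletion 4 had 7.92 RPKM, and the other deletion libraries had 0.0219 RPKM or less. Of the markers of the labelled tissue, 21 of 21 rhombic lip genes and 16 of 16 genes of the GABAergic lineage passed the level filter. Ezh2 deletion 2 stood apart in choroid plexus genes, whose summed level was 167 RPKM there and between 0.537 and 18.5 RPKM in every other library. Their part in the results below was not tested, but values without that library are given beside the Meis and Pbx genes. In bulk tissue, fewer cells of a type and less RNA per cell cannot be told apart.

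In wild type the 8 genes differed widely in level per length. Pbx3 was the most abundant at 162 ± 9.92 RPKM (SD, n = 4), above 97.7% of all genes tested, and Meis1 followed at 56.6 ± 3.23 RPKM. Meis2 came next at 43.3 ± 3.51 RPKM, then Meis3 at 33.1 ± 1.04 RPKM and Pbx2 at 26.9 ± 1.89 RPKM. The lowest were Pknox2 at 16.2 ± 0.831 RPKM, Pknox1 at 10.2 ± 0.189 RPKM and Pbx4 at 8.88 ± 0.329 RPKM. Each gene's lowest wild type library exceeded the highest of the next gene, so no neighbours in this order overlapped. In Ezh2 deletion the order was the same except that Meis2, at 76.8 RPKM, stood above Meis1, at 62.2 RPKM. There the libraries of Meis3 and Pbx2 overlapped, and those of the other neighbours did not.

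**Figure D1:**
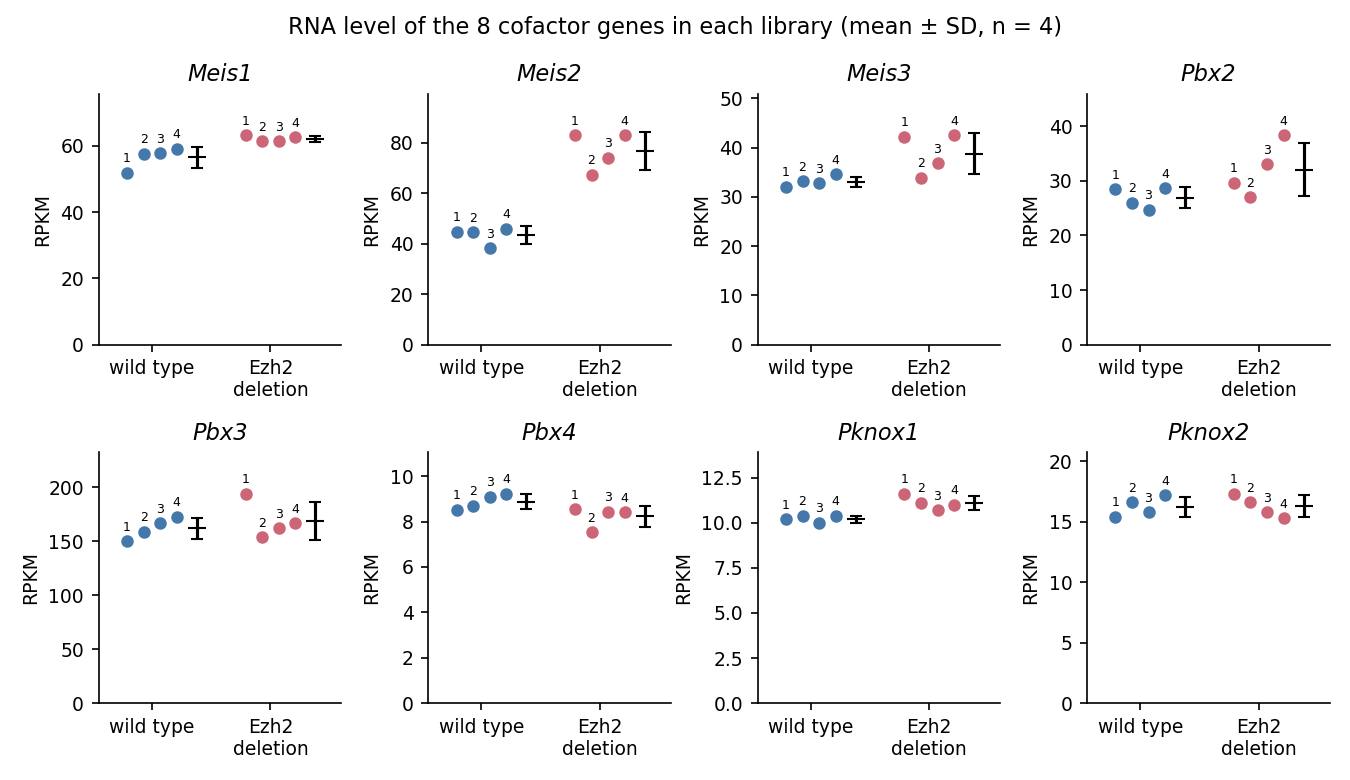
RNA level (RPKM, axes from 0) of the 8 genes in the 4 wild type libraries (blue) and the 4 Ezh2 deletion libraries (red), numbered as in the labels, with mean ± SD in black. The deletion libraries of Meis2 lie between 67.3 and 82.9 RPKM and those of wild type between 38.2 and 46.0 RPKM, while most other panels overlap.

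The comparison of genotypes asked which of these cofactors changed when Ezh2 was removed. Meis2 rose 1.77-fold, and the other 7 genes did not pass the test. The background over all genes tested was 387 higher after Ezh2 deletion and 106 lower, or 479 and 55 once libraries had been rescaled without Xist, Y-linked and erythroid genes. Thus 3.45% of genes were called in either direction, 2.71% as higher and 0.742% as lower. Of the 8 members 1 was called higher and 0 lower, and 4 had an unadjusted p under 0.05, as did 17.7% of all genes. Their median log2 difference was 0.12, and 0.11 without Meis2, beside -0.012 over all genes. For 3 members (Meis1, Meis2 and Pknox1) the groups did not overlap and Ezh2 deletion was higher, as in 6.79% of genes tested. The reverse order, found in 5.61% of genes tested, occurred for 0 members.

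Meis proteins are the partners that bind both Pbx and a subset of Hox proteins. Meis2, a factor of the midbrain roof, the forebrain and neural crest derivatives, was at 44.7, 44.5, 38.2 and 46.0 RPKM in wild type 1 to 4. In Ezh2 deletion 1 to 4 it was at 82.9, 67.3, 74.1 and 82.9 RPKM. The groups did not overlap, and their gap was wider than the range within either of them. The log2 difference was 0.82 (SE 0.0822, 95% interval 0.64 to 1.0, limma adjusted p = 4.65e-04). Of all genes tested, 317 had a difference at least as large, Meis2 included. Among the 39 called higher genes with a mean of at least 20 RPKM it ranked sixth by size.

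Meis2 also passed in each of the 19 alternative fits, with log2 differences from 0.76 to 0.94 and limma adjusted p from 6.01e-05 to 0.0106. Within the libraries carrying Y-linked RNA, which leaves Ezh2 deletion 4 against the 4 wild type libraries, it was 0.94 (SE 0.109, limma adjusted p = 0.0106). That fit takes its spread from wild type, as if the lone Ezh2 deletion library varied to the same degree. Ezh2 deletion 4 also had the highest Ezh2 level of its group, 64.4 RPKM, and Ezh2 itself was at -0.29 in that fit. Without Ezh2 deletion 2 the Meis2 difference was 0.88 (limma adjusted p = 0.00034).

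Meis1, a factor of cerebellar granule cell precursors and of blood stem cells, was at 51.9, 57.6, 57.8 and 59.2 RPKM in wild type 1 to 4, while Ezh2 deletion 1 to 4 held 63.2, 61.4, 61.5 and 62.7 RPKM. Every deletion library was higher than every wild type library, but the gap was small beside the spread of the wild type libraries. The log2 difference of 0.14 (SE 0.0495, limma adjusted p = 0.187) did not pass, and its 95% interval ran from 0.026 to 0.25. Without Ezh2 deletion 2 it was also 0.14. Such an interval allows at most a 1.19-fold rise, against at least 1.56-fold for Meis2.

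Meis3, known from frog and fish embryos as a hindbrain patterning factor, was at 32.1, 33.2, 32.8 and 34.6 RPKM in wild type 1 to 4. Its deletion libraries 1 to 4 were at 42.2, 33.9, 36.8 and 42.5 RPKM, and the second of these fell within the wild type range. The log2 difference of 0.22 (SE 0.0742, 95% interval 0.055 to 0.39, limma adjusted p = 0.155) did not pass. It was 0.28 without Ezh2 deletion 2 (limma adjusted p = 0.0502), and of the 19 alternative fits it passed only in the rescaled one (0.27, limma adjusted p = 0.047). That rescaling raised the median log2 difference over all genes from -0.012 to 0.038.

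The make-up of the summed Meis RNA did not overlap between genotypes. The ratio of Meis2 to Meis1 RPKM was 0.861, 0.773, 0.661 and 0.778 in wild type 1 to 4, against 1.31, 1.1, 1.21 and 1.32 for Ezh2 deletion 1 to 4. Meis1 was thus the more abundant transcript per length in each wild type library and Meis2 in each deletion library. Meis2 made up 32.5 ± 2.08% of the summed Meis RPKM in wild type against 43.1 ± 1.25% after Ezh2 deletion (SD, n = 4). The Meis sum itself was 133 ± 5.32 RPKM in wild type against 178 ± 12.4 RPKM after Ezh2 deletion, with no overlap. The ratio of Meis3 to Meis1 overlapped between genotypes (0.567 to 0.618 and 0.551 to 0.678). These sums and ratios follow from the members chosen and are given without a test.

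**Figure D2:**
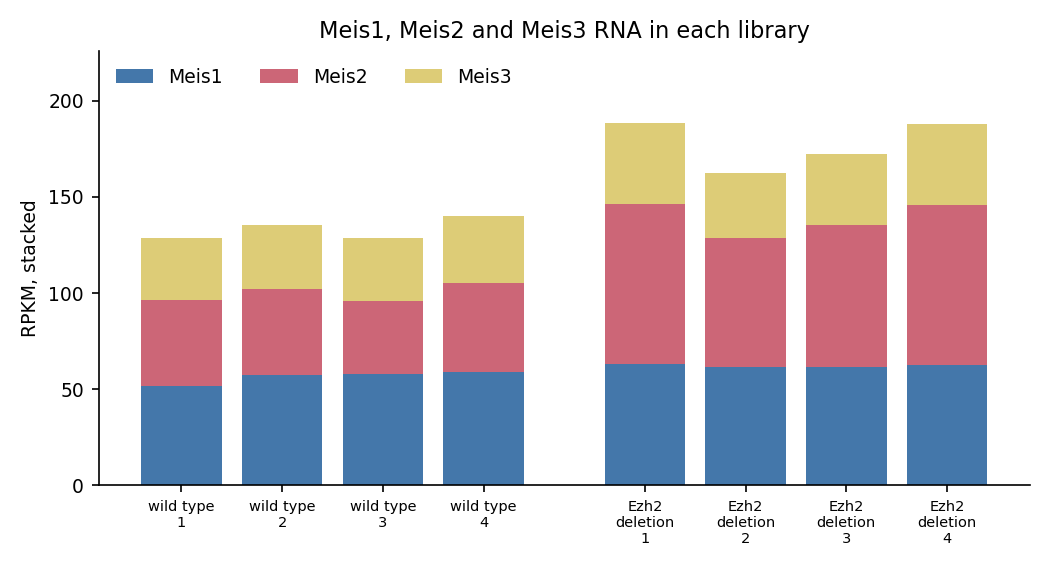
Stacked RPKM of Meis1 (blue), Meis2 (red) and Meis3 (yellow) in each library. The total lies between 129 and 140 RPKM in wild type and between 163 and 188 RPKM in Ezh2 deletion, and the red segment differs most between the genotypes.

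The Pbx genes encode the partners that contact Hox proteins directly. Pbx3, which mice need for the brainstem circuits of breathing, was at 150, 159, 167 and 173 RPKM in wild type 1 to 4, while Ezh2 deletion 1 to 4 held 194, 154, 162 and 167 RPKM. Only Ezh2 deletion 1 lay outside the wild type range. The log2 difference was 0.057 (SE 0.0761, 95% interval -0.11 to 0.23, limma adjusted p = 0.744), and without Ezh2 deletion 1 its sign turned, to -0.012. Without Ezh2 deletion 2 it was 0.1.

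Pbx2, a broadly expressed member that mice can lack without visible defects, was at 28.4, 26.0, 24.7 and 28.6 RPKM in wild type 1 to 4, while Ezh2 deletion 1 to 4 held 29.6, 27, 33.0 and 38.3 RPKM. Ezh2 deletion 2 lay within the wild type range and the other 3 above it. The log2 difference of 0.24 (SE 0.1, 95% interval 0.013 to 0.46, limma adjusted p = 0.254) did not pass. In Ezh2 deletion 4 alone, the library carrying Y-linked RNA, it was 0.51 (limma adjusted p = 0.0604), and without that library it was 0.15 (limma adjusted p = 0.413). Without Ezh2 deletion 2 it was 0.31 (limma adjusted p = 0.116).

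Pbx4, best known from the testis in mice, was at 8.52, 8.69, 9.09 and 9.22 RPKM in wild type 1 to 4. Its level was 8.54, 7.53, 8.44 and 8.41 RPKM in Ezh2 deletion 1 to 4, where only the first library reached the wild type range. This was the only member with a negative estimate in the fit of all libraries (log2 difference -0.11, SE 0.0626, 95% interval -0.25 to 0.032, limma adjusted p = 0.405). Without Ezh2 deletion 2 it was -0.067 (limma adjusted p = 0.603). The summed RPKM of the 3 Pbx genes was 198 ± 10.2 in wild type against 209 ± 18.5 after Ezh2 deletion (SD, n = 4), and Pbx3 made up 81.9 ± 1.25% and 80.7 ± 2.39% of it.

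Pknox proteins, also called Prep, bind Pbx as Meis proteins do but contact Hox proteins less. Pknox1, which mice need early in development, was at 10.2, 10.4, 10 and 10.4 RPKM in wild type 1 to 4, while Ezh2 deletion 1 to 4 held 11.6, 11.1, 10.7 and 11 RPKM. Every deletion library was above every wild type library by a small margin. The log2 difference of 0.11 (SE 0.0511, 95% interval -0.0018 to 0.23, limma adjusted p = 0.29) did not pass.

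Pknox2, a family member expressed in the nervous system, was at 15.4, 16.6, 15.8 and 17.2 RPKM in wild type 1 to 4, while Ezh2 deletion 1 to 4 held 17.3, 16.6, 15.8 and 15.3 RPKM. The groups overlapped almost completely. The log2 difference of 0.00035 (SE 0.0585, 95% interval -0.13 to 0.13, limma adjusted p = 0.997) leaves room for at most a 1.1-fold rise or a fall to 0.914 of the wild type level. The ratio of Pknox2 to Pknox1 RPKM was 1.58 ± 0.0614 in wild type against 1.46 ± 0.0486 after Ezh2 deletion (SD, n = 4), and the groups did not overlap. The summed RPKM of both genes did overlap, at 25.6 to 27.6 and 26.2 to 28.9.

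**Figure D3:**
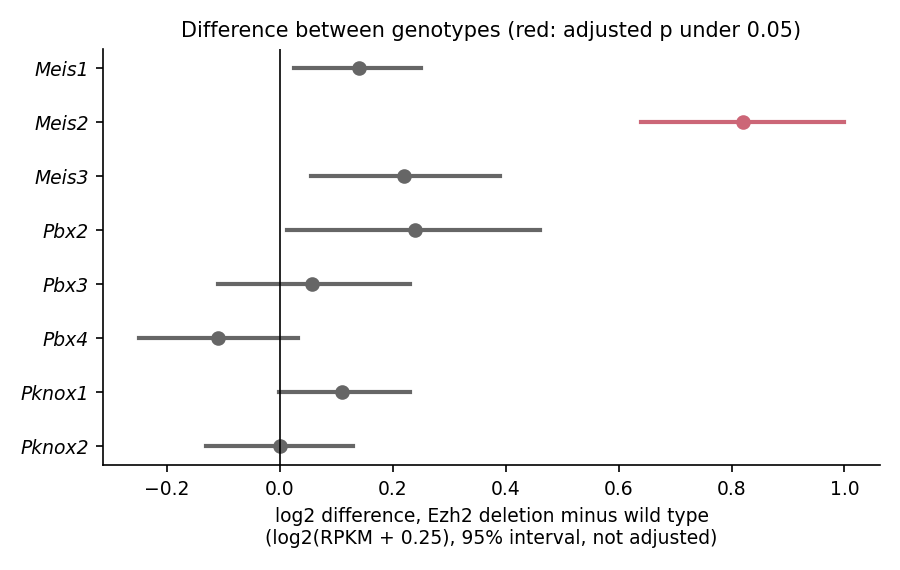
Log2 difference of each gene between Ezh2 deletion and wild type on log2(RPKM + 0.25), with limma's 95% interval, not adjusted. Meis2 (red) is the only gene with an adjusted p under 0.05, at 0.82, and the other estimates lie between -0.11 and 0.24.

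The same deletion library tended to be the lowest. Ezh2 deletion 2 was the lowest deletion library for 6 of the 8 members, all but Pknox1 and Pknox2. Its differences from the wild type mean were 0.64 for Meis2, 0.031 for Meis3 and 0.011 for Pbx2 on the log2 scale, where Ezh2 deletion 4 had 0.94, 0.36 and 0.51. The same library held the lowest Ezh2 level, 48.7 RPKM, the greatest relative depth, 2.11, and the highest choroid plexus sum. Their part in the spread of the members was not tested.

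**Figure D4:**
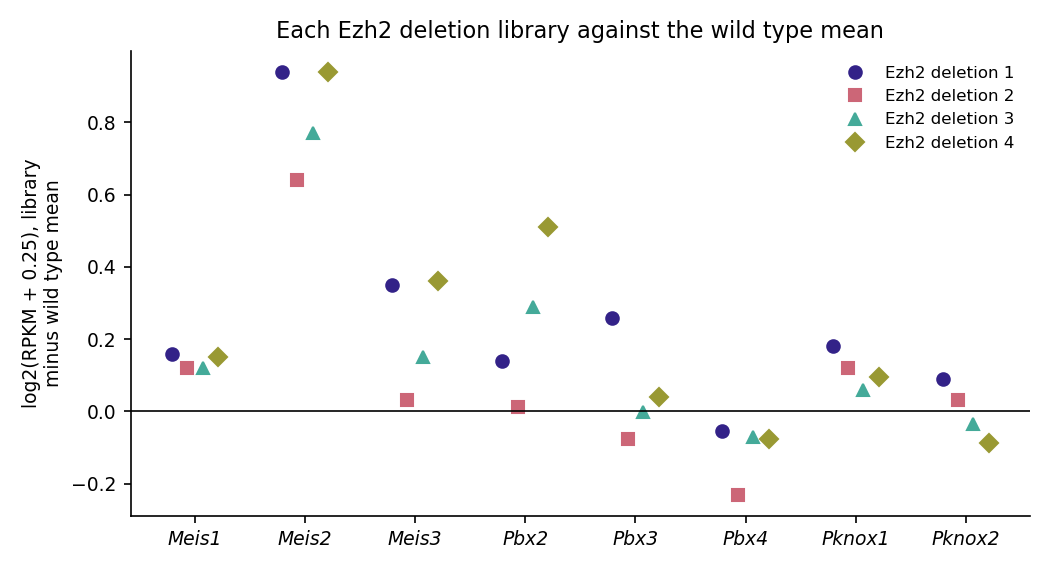
Difference of each Ezh2 deletion library from the mean of the 4 wild type libraries, on log2(RPKM + 0.25), for the 8 genes. All points of Meis2 lie between 0.64 and 0.94, and the squares of Ezh2 deletion 2 are lowest in the Meis and Pbx genes.

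The Hox genes, whose proteins act with these cofactors, were nearly all called higher among those tested. Most of these were tested only through their level after Ezh2 deletion. The 39 Hox genes summed to 0.844 ± 0.36 RPKM in wild type against 65.1 ± 11.5 RPKM after Ezh2 deletion (SD, n = 4). Beside the sum of the 8 cofactors, 358 ± 15.3 and 415 ± 30.9 RPKM, the Hox sum was 0.236 ± 0.102% in wild type against 15.8 ± 3.56% after Ezh2 deletion. In every library the summed cofactor level thus exceeded the summed Hox level. In Ezh2 deletion 1 to 4 the Hox sum was 69.9, 78.8, 58.7 and 53.0 RPKM. The Meis2 level there was 82.9, 67.3, 74.1 and 82.9 RPKM. Each deletion library lay above every wild type library in both values. Within the deletion group, Ezh2 deletion 2 held the most Hox RNA and the least Meis2 RNA. That library was also the lowest of its group for most members and had the highest choroid plexus sum. A relation between Hox and Meis2 RNA was not tested.

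Hox proteins of different paralogue groups use these partners differently. Those of the first groups bind mainly with Pbx, and those of the last groups bind with Meis. In groups 1 to 4, 9 of 12 genes passed the level filter and all 9 were higher, and in groups 5 to 8 it was 10 of 11 genes and all 10. In groups 9 to 13, 7 of 16 genes passed the filter and 6 were higher. Wild type levels averaged under 0.25 RPKM in 11 of 12, 11 of 11 and 16 of 16 genes of these groups, so the filter admitted them almost wholly through Ezh2 deletion and the counts were bound to tilt upward. Hoxb3 rose from 0.0190 to 3.89 RPKM, Hoxc4 from 0.0094 to 2.40 RPKM and Hoxa10 from 0.00471 to 2.94 RPKM. Their limma adjusted p was at most 1.72e-06, but each was tested only through its level after Ezh2 deletion, so these calls support nothing.

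Genes whose enhancers are known to be bound by Pbx or Meis proteins were followed as another list. Of 14 such genes 12 were tested, and 4 were higher and 0 lower. The median log2 difference was 0.34 over all 12 and -0.028 over the 8 genes outside the Hox clusters. Of the 4 called genes 3 averaged under 0.25 RPKM in wild type and were tested only through Ezh2 deletion. The 4 were Hoxa2, Hoxb2, Hoxa3 and Hoxb4, which are counted among the Hox genes as well. Hoxa2, the most anterior Hox gene of the hindbrain, rose from 0.276 ± 0.253 to 2.80 ± 0.624 RPKM (SD, n = 4, log2 difference 2.65, limma adjusted p = 0.00309), and was not called in Ezh2 deletion 4 alone (2.37, limma adjusted p = 0.129). Hoxb2 rose from 0.0127 to 2.65 RPKM. Hoxa3 was listed at 0 in each wild type library, while Ezh2 deletion 1 to 4 held 2.25, 2.71, 2.01 and 1.99 RPKM. The 8 tested genes outside the Hox clusters did not pass. Their log2 differences included -0.26 for Pax6, -0.2 for Cyp26b1 and 0.41 for Epha2. Th was at 0.72 (limma adjusted p = 0.131), and its groups did not overlap. These 4 genes were named after their values were seen.

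Other TALE homeobox genes were followed as a list. All 9 (6 Irx genes, Tgif1, Tgif2 and Mkx) were tested, and 0 passed in either direction, with a median log2 difference of 0.21. Only for Mkx among them did the groups not overlap, beside 12.4% of all genes tested. Mkx was at 0.110 to 0.216 RPKM in wild type and 0.267 to 0.453 RPKM in Ezh2 deletion. Its wild type mean of 0.167 RPKM lay under the filter of 0.25 RPKM. Mkx was thus tested only through its level after Ezh2 deletion, and its lack of overlap supports nothing.

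Retinoic acid induces Meis and Hox genes in many tissues, and the list of its pathway held 19 genes, of which 13 were tested, 2 were higher and 1 was lower. Crabp1, a protein that binds retinoic acid in the cytoplasm, rose from 46.0 ± 15.1 to 231 ± 31.2 RPKM (SD, n = 4, log2 difference 2.38, SE 0.263, limma adjusted p = 0.00404). In Ezh2 deletion 4 alone it was 2.56 and not called (limma adjusted p = 0.142). Rara, a retinoic acid receptor, rose from 4.77 to 6.70 RPKM (limma adjusted p = 0.0226), and Dhrs3, an enzyme that limits retinoic acid synthesis, fell from 22.3 to 15.0 RPKM (limma adjusted p = 0.0362). Rara was not called without wild type 1, 2 or 4, and Dhrs3 was not called without any single library other than Ezh2 deletion 2 or 4. Both also lost the call under quantile normalization and with the library number as a replicate block. Dhrs3 lost it as well after rescaling without Xist, Y-linked and erythroid genes, and with eBayes run without trend and robust. The list's median log2 difference was 0.041.

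Of 13 proteins that bind TALE factors or take part in their export or turnover, 1 was lower and 0 higher, with a median log2 difference of -0.00074. Tle1, a Groucho corepressor, fell from 79.6 ± 5.08 to 57.1 ± 2.49 RPKM (SD, n = 4, log2 difference -0.48, SE 0.0566, limma adjusted p = 0.00144). Its relative Tle4 was at 21.2 and 26.6 RPKM and did not pass (limma adjusted p = 0.0697).

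Meis genes are expressed in several lineages of the dissected region, whose markers were set beside Meis2. Of 21 rhombic lip genes 3 were higher and 0 lower (Barhl2, Lhx2 and Slc17a6), and of 16 genes of the GABAergic lineage 1 was higher (Pax2) and 4 were lower (Olig2, Skor2, Foxp2 and Pcp4). Their medians were 0.071 and -0.27 on the log2 scale. Barhl2 and Skor2 were not called in Ezh2 deletion 4 alone. Pcp4 was close to the threshold (log2 difference -0.91, limma adjusted p = 0.0453) and was called with 1 library left out only without Ezh2 deletion 2 (-1.09, limma adjusted p = 0.00268). Olig2 and Foxp2 were named after their values were seen, and their alternatives were not computed. Of 10 tested midbrain genes 2 were higher, of which 1 averaged under 0.25 RPKM in wild type. The other, Pou4f1, rose from 6.80 to 14.9 RPKM. The median of the midbrain list was 1.13.

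The midbrain list of 13 genes summed to 72.2 to 94.4 RPKM in wild type and to 112, 95.7, 118 and 147 RPKM in Ezh2 deletion 1 to 4. Otx2, its defining factor, was at 7.55, 6.90, 3.86 and 3.51 RPKM in wild type 1 to 4, while Ezh2 deletion 1 to 4 held 4.14, 14.7, 15.3 and 21.1 RPKM. In Ezh2 deletion 1 the Otx2 level lay within the wild type range, but the midbrain sum, 112 RPKM, lay above it. Meis2 stood at 82.9 RPKM both there and in Ezh2 deletion 4, which held the most Otx2. A relation between midbrain markers and Meis2 was not tested. Foxa1 was listed at 0 in every wild type library, while Ezh2 deletion 1 to 4 held 0.277, 0.442, 0.358 and 0.369 RPKM. The brainstem gene Mnx1 was listed at 0 in every library except Ezh2 deletion 2, at 0.0153 RPKM. In these values a 0 can be a failed estimate, since Tuba1a, an abundant gene of neurons, was listed at 0 in all 8 libraries. Pou4f1, Otx2, Foxa1, Mnx1 and Tuba1a were chosen after their values were seen.

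Markers of other cells were read in the same way. Of the tested genes 1 of 6 was higher for the brainstem (Slc6a4), 2 of 4 for cranial ganglia and neural crest (Ngfr and Foxd3) and 0 of 5 for mesenchyme and meninges. Slc6a4 was at 0.126 and 0.445 RPKM, Ngfr at 8.33 and 17.7 RPKM and Foxd3 at 0.0523 and 2.00 RPKM in wild type and Ezh2 deletion, with no overlap between groups. Slc6a4 and Foxd3 averaged under 0.25 RPKM in wild type, so they were tested only through their level after Ezh2 deletion and these calls support nothing. The medians of the brainstem, ganglion and crest, and mesenchyme lists were 0.27, 0.58 and 0.66 on the log2 scale. None of 6 endothelial, 6 microglial, 5 choroid plexus and 8 erythroid genes was called. Slc6a4, Ngfr, Foxd3 and Sox10 were also named after their values were seen. Sox10, which defines neural crest glia, was at 0.208 and 0.217 RPKM in wild type and Ezh2 deletion. The summed levels ran from 12.3 to 23.4 RPKM in wild type and from 16.4 to 21.3 RPKM in Ezh2 deletion for the brainstem, from 29.6 to 40.6 and from 40.3 to 55.6 RPKM for ganglia and crest, and from 2.80 to 7.39 and from 4.15 to 20.6 RPKM for mesenchyme. They ran from 51.7 to 62.1 and from 43.6 to 66.7 RPKM for endothelium, from 13.2 to 18.5 and from 14.8 to 24.4 RPKM for microglia, and from 384 to 462 and from 316 to 681 RPKM for erythroid genes. Their part in the Meis2 difference was not tested.

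The genes whose pattern over the 8 libraries was most like that of Meis2 were Ptprn, Plcd1 and Nol3. Likeness was the root-mean-square difference between log2 profiles, each centred on its own mean, over 11276 genes with a mean of at least 1 RPKM. It was 0.0872 for Ptprn, 0.11 for Plcd1 and 0.114 for Nol3, where the median gene had 0.45. Ptprn, a protein of dense core vesicles, was at 8.31 ± 0.278 and 14.7 ± 0.705 RPKM (SD, n = 4). Plcd1, a phospholipase, was at 4.04 and 8.19 RPKM, and Nol3, an inhibitor of cell death, at 2.10 and 3.81 RPKM. They were chosen for this likeness, so their differences carry no test here.

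Genes beside the members on the chromosome were read from the order of RefSeq genes, taking 2 on each side that were present in the table, a comparison chosen after seeing the data. Of 32 such neighbours 29 were tested, 2 were higher and 0 lower. Beside Meis2, 2810405F15Rik, a gene for a long noncoding RNA, was at 0.231 ± 0.111 RPKM in wild type against 0.617 ± 0.0903 RPKM after Ezh2 deletion (SD, n = 4, log2 difference 0.87, SE 0.178, limma adjusted p = 0.0278). Its wild type mean lay under the filter of 0.25 RPKM, so it was tested only through its level after Ezh2 deletion and its call supports nothing. Strand use in counting is not given in the sources used here, so reads of overlapping transcripts cannot be told apart. The tested neighbour on the other side, BC052040, was at 11.9 and 12.1 RPKM. Beside Pbx3, Lmx1b, a homeobox factor of the midbrain-hindbrain border, was at 9.33 ± 2.81 RPKM in wild type against 25.4 ± 4.39 RPKM after Ezh2 deletion (SD, n = 4, limma adjusted p = 0.0116), whereas Pbx3 itself did not pass.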

How the data were processed

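The study measured RNA in 8 cerebellum libraries, 4 per genotype, grouped by sample title. The H3K27me3 samples (1 per genotype) were not used. The authors deposited RPKM per gene. Per the submitters' processing notes, the tools were Bowtie, TopHat, SICER and Cuffdiff and the build mm9, with no role given. Annotation, multi-mapping and strand are not given in the labels. RPKM are not counts, so total depth is unknown. In genes with a mean under 0.1 RPKM, values largely step by whole reads, which gave relative depths: once scaled by them, 78.4% of 11932 values other than a gene's lowest were whole multiples of it, to within 0.05. No 2 libraries were identical.

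Genes averaging at least 0.25 RPKM were compared as log2(RPKM + 0.25), which understates changes of low genes, using eBayes of limma 3.58.1 (trend, robust; R 4.3.3). Tests were two-sided and p-values were adjusted by Benjamini-Hochberg over all genes tested, with a threshold of 0.05. Intervals of 95% are unadjusted. The fit was tested on simulated data. A rule named Ezh2, the 8 members, up to 3 called genes of largest change per pathway or tissue list, the most abundant gene per list of other cells, Xist, Ddx3y, and the 3 genes nearest to each called member. Not all of these are printed, and some are not reported here. Members and lists were chosen with earlier results of these data known. Alternatives changed pseudocount, filter, scaling, weights, variance model, replicate block, libraries and threshold. RefSeq windows and gene order are of GRCm38.p6; no mm9 coordinates are given.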

Additional observations from a re-analysis of the deposited data

Results flagged for a closer look

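In groups of 4 libraries, a library was singled out when its gap to the nearest other exceeded 0.829 of the group's range, Dixon's 95% critical value, which chance passes in about 1 in 20 groups. This occurred 11 times over 104 groups checked. Among the members, Ezh2 deletion 2 held the lowest Pbx4 level, 7.53 RPKM, and Ezh2 deletion 4 the lowest ratio of Pknox2 to Pknox1 among the deletion libraries, 1.39. Ezh2 deletion 2 also had the highest Ttr, 152 RPKM, and Col3a1, 5.22 RPKM, of its group, and the lowest Nol3, 3.29 RPKM. Ddx3y was high in Ezh2 deletion 4 alone among the deletion libraries, at 7.92 RPKM. Rara was highest in Ezh2 deletion 1, at 7.89 RPKM, and Dhrs3 was highest in wild type 1, at 24.6 RPKM. Among wild type libraries near 0, Hoxb3 reached 0.0414 RPKM in wild type 2, Hoxc9 0.0198 RPKM in wild type 4 and Hoxa10 0.0188 RPKM in wild type 3.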

How the results depend on the processing

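Meis2 kept its direction and its call in all 19 alternatives, and Meis1, Pbx2, Pbx4 and Pknox1 kept their direction and stayed uncalled. Meis3 was called at 0.27 after rescaling without Xist, Y-linked and erythroid genes. Pknox2 turned negative with array weights (-0.011) and in libraries with Y-linked RNA (-0.087). With 1 library left out it ran from -0.03 to 0.03 and Pbx3 from -0.012 to 0.1. Ezh2 was -0.29 and not called in libraries with Y-linked RNA. Genes called higher numbered 387 over all libraries, 195 in libraries with Y-linked RNA, and 173 and 614 at adjusted p under 0.01 and 0.1. Genes called lower numbered 106 over all libraries, 55 after the rescaling above, 181 with array weights, and 28 and 248 at those thresholds. With 1 library left out, 223 to 352 genes were higher and 40 to 100 lower. The higher count moved over 1.5 times without wild type 3 or 4 or Ezh2 deletion 3, and the lower count without any library but Ezh2 deletion 2 or 4. Same-numbered libraries of the genotypes did not deviate together (correlations of 0.005 to 0.083), so the number is no pairing; with it as a replicate block 300 genes were higher and 53 lower, and Meis2 was at 0.82 (limma adjusted p = 0.00244).

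Of 623 values for 33 other named genes, 577 kept direction and call, 32 lost the call, 3 gained it and 11 changed sign, none of these called. Lmx1a was 0.0049, 0.023 and 0.042 under median-ratio scaling, quantile normalization and the rescaling above, and ran from -0.066 to 0.054 with 1 library left out. Left-out libraries gave -0.44 to 0.58 for Col3a1 and -0.067 to 0.31 for C1qa. In libraries with Y-linked RNA Col3a1 was -0.72 and Ttr -1.54. The cause of these changes was not tested. Total depth is unknown, which limits what can be said of genes near 0.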
